A study of Mus musculus with 8 samples.

Results

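Expression of 10 genes was described in the P3 mouse cortex after loss of the BAF scaffolding subunits BAF155 and BAF170. The genes are grouped here under the committed and premyelinating stages of the oligodendrocyte lineage. Some are also genes of precursors or of other cells. The genes are Bcas1, Enpp6, Gpr17, Neu4, Fa2h, Ugt8a, Tspan2, Cspg4, Lhfpl3 and Itpr2. They were found by their symbols among the 48709 genes in the count data, and all 10 of the 10 were among the 16525 genes that passed the filter on low counts. The set was chosen from measured values of these same 8 samples, so the differences between the groups are given as a description of these genes and not as a test of them.

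RNA was sequenced from the cortex of 4 dcKO_hGFAP-Cre and 4 control mice at postnatal day 3 (P3) on a C57BL/6J background. The dcKO_hGFAP-Cre mutants carry 2 floxed copies each of BAF155 (gene Smarcc1) and BAF170 (gene Smarcc2) together with hGFAP-Cre. The controls are given by the study's methods as carrying 1 floxed and 1 intact copy of each gene with the same Cre, but appear as wild type in the sample titles. The Cre recombinase is driven by a human GFAP promoter, and the study gives its activity as prominent in progenitors of the dorsal telencephalon (dTel). Cells in which it did not act keep both genes, and which cells these are was not measured here. The methods name the dissected tissue as dTel, and the mutants die soon after birth. Nothing in the labels says whether animals of the same number are littermates, and p-values measure only the spread between these samples.

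Oligodendrocyte precursor cells divide and migrate through the forebrain before they leave the cell cycle. Committed precursors then switch on a transient set of genes, become premyelinating cells with many fine processes, and finally wrap axons with a membrane rich in galactolipids. In the mouse cortex this maturation unfolds mostly after birth, so that at P3 precursors and committed cells prevail over myelinating ones.

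The total count per sample was between 21126713 and 31805395 in control and between 22002784 and 32110285 in mutant cortex. Counts are given as CPM, the count of a gene scaled to a common library total after TMM normalization, and in a single library 3 counts corresponded to between 0.0906 and 0.148 CPM. The deleted gene Smarcc1 was 159 ± 11.2 CPM in controls against 81.2 ± 5.90 CPM in mutants (SD, n = 4 each), and Smarcc2 was 483 ± 14.7 CPM against 283 ± 28.2 CPM (SD, n = 4 each), with every mutant below every control for both. Over all genes tested, 3128 (18.9%) were lower and 3074 (18.6%) were higher in mutant cortex by the threshold of 0.05 on the adjusted p of edgeR's quasi-likelihood test. Scaling by library totals alone gave 2102 lower and 4584 higher genes and moved the median over all genes from 0.02 to 0.15 on the log2 scale. The share of counts from mitochondrial genes was 2.06 to 3.23% in control and 3.57 to 5.47% in mutant samples, with no overlap between the groups, and its part in the levels of the 10 genes was not tested. All 4 mutants lay below all 4 controls in 17.7% of the genes tested and above them in 16.7%.

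Of the 10 genes, 8 were among the lower calls, where the share over all genes was 18.9%. The same 8 genes, Bcas1, Enpp6, Gpr17, Neu4, Fa2h, Ugt8a, Cspg4 and Itpr2, had all 4 mutants below all 4 controls, where the share over all genes was 17.7%. Both counts use the contrast by which the set was chosen, and nothing further is read from them. The median log2 fold change (mutant minus control) was -1.45 over the 10 genes and 0.02 over all genes tested. Tspan2 and Lhfpl3 were the members not among the calls, and their groups overlapped. Because whole cortex was sequenced, fewer cells of a type and less RNA of these genes per cell cannot be told apart.

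**Figure D1:**
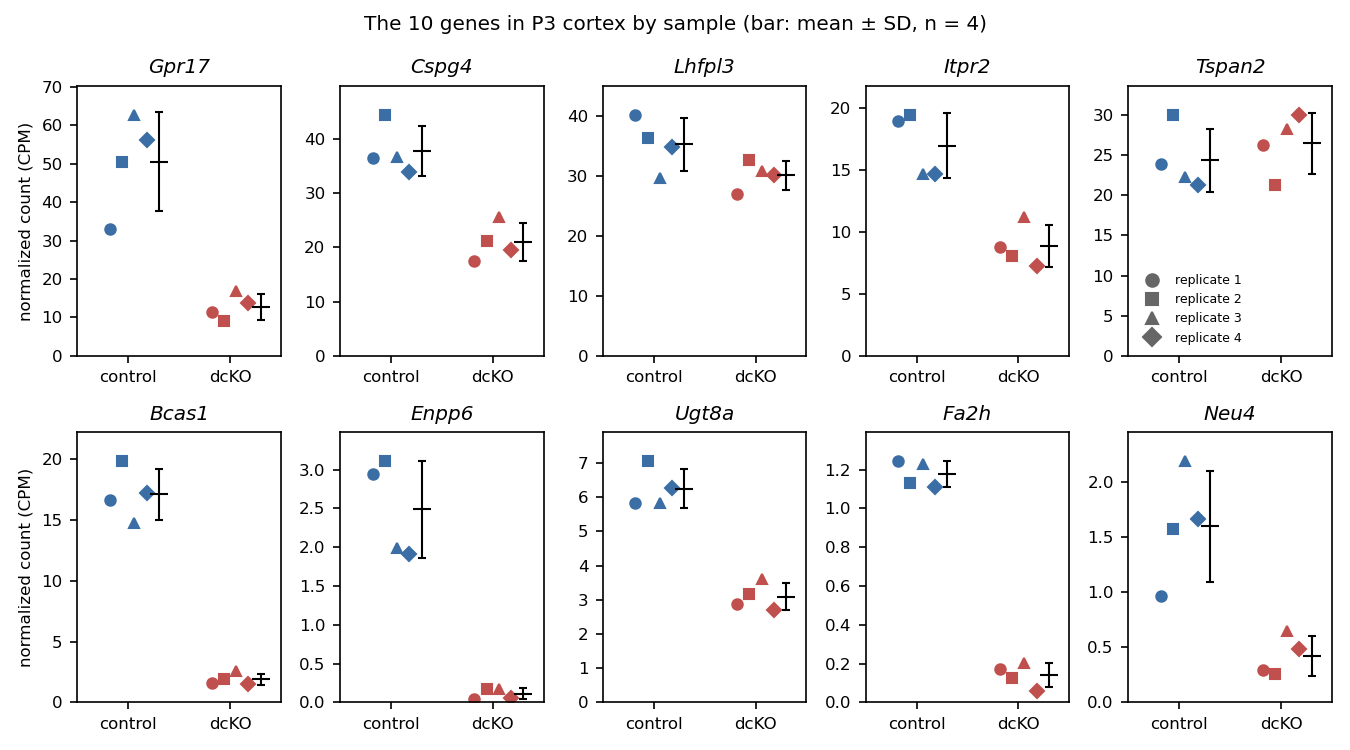
Normalized counts (CPM, vertical axes from 0, a separate scale for each gene) of the 10 genes in each control (blue) and dcKO_hGFAP-Cre (red, dcKO) sample, with marker shapes for replicates 1 to 4 and a bar for the mean ± SD of 4 samples. The groups are apart for 8 genes and overlap for Lhfpl3, between 27.0 and 32.8 CPM in the mutants, and for Tspan2, between 21.2 and 30.01 CPM.

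The stretch of promoter sequence upstream of the transcription start is shown for the members with the largest differences that have an entry in the RefSeq promoter table used (build GRCm38.p6, the same assembly as mm10), and for Tspan2, whose log2 fold change was nearest to 0. Each window runs from 250 bases before to 50 bases after the annotated start, 5′ to 3′ on the strand of the gene. Capitals mark the motifs searched on both strands, which were ACAAAG and ACAATG (core motifs bound by SOX factors) and CAGCTG and CAGATG (E-boxes, bound by basic helix-loop-helix factors such as OLIG2). Entries were found for 7 of the 10 genes, those of Enpp6, Neu4, Ugt8a, Tspan2, Cspg4, Lhfpl3 and Itpr2.
Enpp6, chr8:46986637-46986936, plus strand: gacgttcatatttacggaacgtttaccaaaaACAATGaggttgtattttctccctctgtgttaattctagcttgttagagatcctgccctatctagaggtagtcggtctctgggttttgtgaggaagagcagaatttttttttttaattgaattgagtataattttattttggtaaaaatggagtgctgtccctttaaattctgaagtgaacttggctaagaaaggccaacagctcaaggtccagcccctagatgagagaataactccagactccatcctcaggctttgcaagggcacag
Neu4, chr1:94020243-94020542, plus strand: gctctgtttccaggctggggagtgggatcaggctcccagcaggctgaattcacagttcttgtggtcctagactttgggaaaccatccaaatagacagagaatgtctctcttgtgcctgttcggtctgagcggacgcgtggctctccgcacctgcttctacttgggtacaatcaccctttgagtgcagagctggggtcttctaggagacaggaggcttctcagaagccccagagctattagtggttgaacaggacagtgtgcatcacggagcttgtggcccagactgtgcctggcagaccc
Ugt8a, chr3:125938603-125938902, minus strand: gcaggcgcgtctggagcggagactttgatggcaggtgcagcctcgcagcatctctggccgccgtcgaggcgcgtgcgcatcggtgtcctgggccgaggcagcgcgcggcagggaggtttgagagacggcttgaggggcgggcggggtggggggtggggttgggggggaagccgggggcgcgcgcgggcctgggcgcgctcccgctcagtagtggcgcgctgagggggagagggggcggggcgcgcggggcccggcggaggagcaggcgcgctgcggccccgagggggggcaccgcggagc
Tspan2, chr3:102734520-102734819, plus strand: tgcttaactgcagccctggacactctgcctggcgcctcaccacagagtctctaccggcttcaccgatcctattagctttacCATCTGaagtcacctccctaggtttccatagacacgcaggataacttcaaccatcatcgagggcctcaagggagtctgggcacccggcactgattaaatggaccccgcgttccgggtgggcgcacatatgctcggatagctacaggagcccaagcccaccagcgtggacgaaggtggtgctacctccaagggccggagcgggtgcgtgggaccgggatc

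The Enpp6 window held 1 ACAATG, which began 219 bases before the start. The Tspan2 window printed held 1 CAGATG on the opposite strand, and a second annotated Tspan2 window, at chr3:102734965-102735264, held 1 ACAAAG. Of the windows not printed, that of Lhfpl3 held 2 CAGCTG and those of Cspg4 and Itpr2 held none of the 4 motifs, as was also the case for the printed windows of Neu4 and Ugt8a. No motif occurrence overlapped another. Among all 32851 promoter windows of this length, 18.7% held ACAAAG, 12.6% ACAATG, 16.3% CAGCTG and 17.2% CAGATG. The windows also differed in base composition, from 40.3% G and C in Enpp6 to 78.3% in Ugt8a, around a median of 52.7% over all windows. A match describes the letters of the window only.

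Bcas1 and Enpp6 are the members most closely tied to the premyelinating cell. Bcas1 encodes a cytoplasmic protein that marks oligodendrocytes in the short period when they begin to form myelin. It lies on chromosome 2 from 170346991 to 170427845 on the minus strand of mm10 (ENSMUSG00000013523). Its level was 16.6, 19.8, 14.8 and 17.2 CPM in control replicates 1 to 4 and 1.58, 1.91, 2.56 and 1.51 CPM in mutant replicates 1 to 4. The lowest control was 5.77 times the highest mutant, so the groups stood far apart. The mutant mean was 11.0% of the control mean, a log2 fold change of -3.17 (SE 0.18).

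Enpp6, on chromosome 8 from 46986887 to 47096762 on the plus strand (ENSMUSG00000038173), encodes a choline-specific glycerophosphodiesterase that appears as precursors differentiate. It was counted 64, 63, 60 and 55 times in control replicates 1 to 4 and 1, 4, 5 and 2 times in the mutant replicates. These are 2.95, 3.11, 1.99 and 1.91 CPM in control and 0.0428, 0.169, 0.171 and 0.0604 CPM in mutant cortex. Every mutant lay near the level of a few counts, and replicates 1 and 4 lay under 3 counts, so the size of the difference is poorly fixed. The log2 fold change was -4.43 (SE 0.38), and the ratio of the summed counts, 242 against 12, was 21.9 after scaling (exact 95% interval 12.3 to 42.9, for counting error only). Enpp6 had the most negative log2 fold change of the 10 genes.

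Gpr17 and Itpr2 act in signalling. Gpr17 encodes a G protein-coupled receptor that is present transiently in committed precursors and holds back their terminal differentiation. It lies on chromosome 18 from 31942997 to 31949636 on the minus strand (ENSMUSG00000052229). Its level was 32.9, 50.6, 62.7 and 56.1 CPM in control replicates 1 to 4 and 11.3, 8.98, 16.9 and 13.8 CPM in the mutants. Control replicate 1 was well under the other controls, at 1.94 times the highest mutant. The mutant mean was 25.2% of the control mean, a log2 fold change of -1.98 (SE 0.23).

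Itpr2 encodes the type 2 inositol trisphosphate receptor, a channel that releases calcium from the endoplasmic reticulum, and it is also a gene of astrocytes. It lies on chromosome 6 from 146108299 to 146502223 on the minus strand (ENSMUSG00000030287) and has the longest merged exons of the set, 14.8 kb. Its level was 19.0, 19.4, 14.7 and 14.7 CPM in control and 8.81, 8.05, 11.2 and 7.28 CPM in mutant cortex. The groups did not overlap, but the lowest control was only 1.31 times the highest mutant, replicate 3. For Itpr2 the log2 fold change was -0.94 (SE 0.16), and the mutant mean was 52.1% of the control mean.

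Neu4, Fa2h and Ugt8a encode enzymes of glycans and myelin lipids. Ugt8a makes galactosylceramide by transferring galactose to ceramide, Fa2h hydroxylates the fatty acid chain that this lipid carries, and Neu4 is a sialidase that removes sialic acid from glycans. Fa2h lies on chromosome 8 from 111345135 to 111393824 on the minus strand (ENSMUSG00000033579). It was counted 27, 23, 37 and 32 times in control and 4, 3, 6 and 2 times in mutant cortex, which is 1.24, 1.13, 1.23 and 1.11 CPM against 0.171, 0.127, 0.205 and 0.0604 CPM. The controls were close to each other, with a coefficient of variation of 5.62%, the lowest of the set. The log2 fold change was -3.05 (SE 0.33), and the ratio of the summed counts was 8.60 (exact 95% interval 5.01 to 15.9, for counting error only).

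Neu4 lies on chromosome 1 from 94020451 to 94028334 on the plus strand (ENSMUSG00000034000). Its level was 0.966, 1.58, 2.19 and 1.67 CPM in control and 0.299, 0.254, 0.648 and 0.483 CPM in mutant cortex. It varied most among the controls, with a coefficient of variation of 31.4%, and as for Gpr17 its lowest control was replicate 1 and its highest replicate 3. The log2 fold change was -1.89 (SE 0.34). Ugt8a lies on chromosome 3 from 125865271 to 125938619 on the minus strand (ENSMUSG00000032854). Its level was 5.84, 7.05, 5.84 and 6.28 CPM in control and 2.86, 3.18, 3.62 and 2.72 CPM in mutant cortex. The mutant mean of Ugt8a was 49.5% of the control mean, a log2 fold change of -1.01 (SE 0.15), so the galactosyltransferase stood at a higher share of its control level than the hydroxylase Fa2h, at 11.9%.

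Cspg4, Lhfpl3 and Tspan2 encode proteins of the cell surface. Cspg4 encodes the proteoglycan NG2, which oligodendrocyte precursors and pericytes both carry, and lies on chromosome 9 from 56865033 to 56899870 on the plus strand (ENSMUSG00000032911). Its level was 36.4, 44.4, 36.6 and 33.8 CPM in control and 17.5, 21.2, 25.6 and 19.4 CPM in mutant cortex. The lowest control was 1.32 times the highest mutant. This gave a log2 fold change of -0.85 (SE 0.13), and the mutant mean was 55.5% of the control mean.

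Lhfpl3 encodes a membrane protein of the LHFP family that serves as a marker of precursors and committed cells. It lies on chromosome 5 from 22746059 to 23275597 on the plus strand (ENSMUSG00000106379). Its level was 40.2, 36.4, 29.6 and 34.9 CPM in control and 27.0, 32.8, 30.8 and 30.2 CPM in mutant cortex. All 4 mutants lay below the 3 highest controls, and control replicate 3 lay among the mutants. Its log2 fold change was -0.22 (SE 0.11), and the mutant mean was 85.5% of the control mean.

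Tspan2 encodes a tetraspanin of the oligodendrocyte membrane and lies on chromosome 3 from 102734529 to 102801513 on the plus strand (ENSMUSG00000027858). Its level was 23.9, 29.97, 22.3 and 21.3 CPM in control and 26.2, 21.2, 28.3 and 30.01 CPM in mutant cortex. The 2 groups covered almost the same range. The log2 fold change was 0.12 (SE 0.13), the only positive one of the set, and the mutant mean was 109% of the control mean. Mutant replicates 1, 3 and 4 were above the control mean, and mutant replicate 2 was the lowest of all 8 samples by a small margin.

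**Figure D2:**
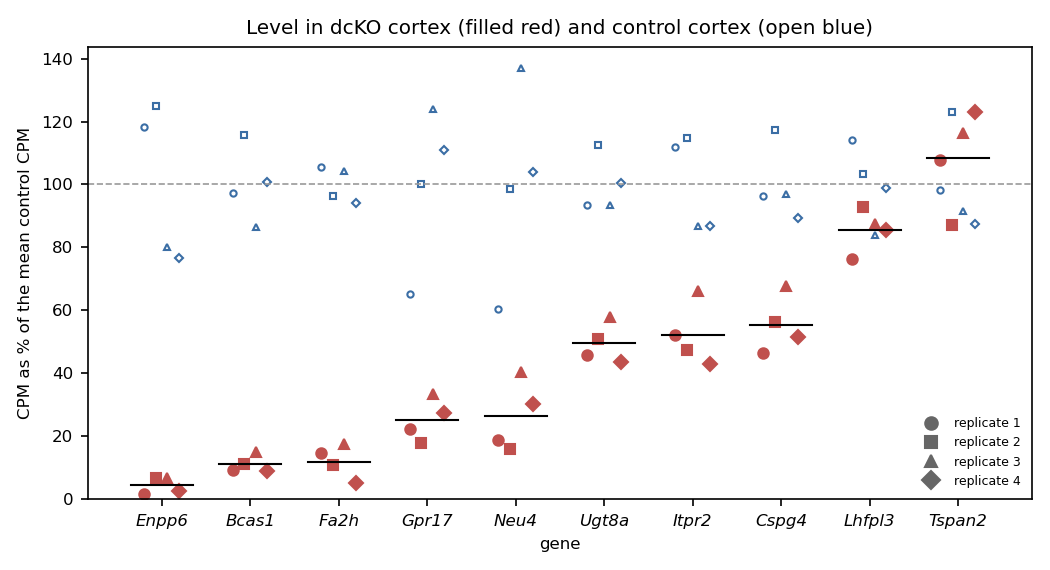
Level of each gene in each sample as a percent of its mean control CPM (vertical axis from 0), for dcKO_hGFAP-Cre (filled red) and control (open blue) replicates 1 to 4, with a black line at the mutant mean and a dashed line at 100%. Mutant means run from 4.45% in Enpp6 through 11.0% in Bcas1, 11.9% in Fa2h, 25.2% in Gpr17 and 26.3% in Neu4 to 49.5% in Ugt8a, 52.1% in Itpr2, 55.5% in Cspg4, 85.5% in Lhfpl3 and 109% in Tspan2.

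Mutant replicate 3 often ranked first among the mutants. It was the highest mutant in 8 of the 10 genes, which were the 8 among the calls, while Tspan2 was highest in mutant replicate 4 and Lhfpl3 in mutant replicate 2. The summed level of the 8 genes was 42.6, 43.9, 60.9 and 45.4 CPM in mutant replicates 1 to 4 and between 116 and 147 CPM in the controls. Mutant replicate 3 also stood apart in the 8 astrocyte markers, which summed to 1714 CPM there, between 693 and 805 CPM in the other mutants and between 1242 and 1370 CPM in the controls. Without mutant replicate 3 all 8 genes were again among the lower calls, and the log2 fold changes were more negative, at -3.36 for Bcas1, -2.15 for Gpr17, -2.17 for Neu4, -3.32 for Fa2h and -1.08 for Itpr2.

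Levels were compared between genes per kilobase of merged exon. In control cortex Lhfpl3 was the highest of the set, at 11.0 ± 1.37 CPM per kb (SD, n = 4), followed by Gpr17 at 9.74 ± 2.46 CPM per kb, and their samples overlapped. Tspan2 at 5.12 and Bcas1 at 4.53 CPM per kb came next and also overlapped each other. Cspg4, at 3.17 CPM per kb, lay below every Bcas1 value in control cortex. Ugt8a at 1.38 and Itpr2 at 1.14 CPM per kb overlapped. Fa2h, Enpp6 and Neu4 formed the lowest group, at 0.392, 0.388 and 0.345 CPM per kb, and could not be ordered beyond the spread between samples.

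In mutant cortex Lhfpl3 was again the highest, at 9.39 ± 0.747 CPM per kb (SD, n = 4), and Tspan2 took the second place at 5.56 ± 0.800 CPM per kb. Bcas1 went from the fourth place in control to the seventh in mutant cortex, at 0.5004 CPM per kb. Its mutant samples overlapped those of Ugt8a and Itpr2, so the order of these genes was not fixed beyond the spread. Enpp6 was the lowest, at 0.0173 CPM per kb, below the lowest of the mutant values of Neu4 and near that of Fa2h. The members thus spread over a wider range of ratios in mutant than in control cortex.

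**Figure D3:**
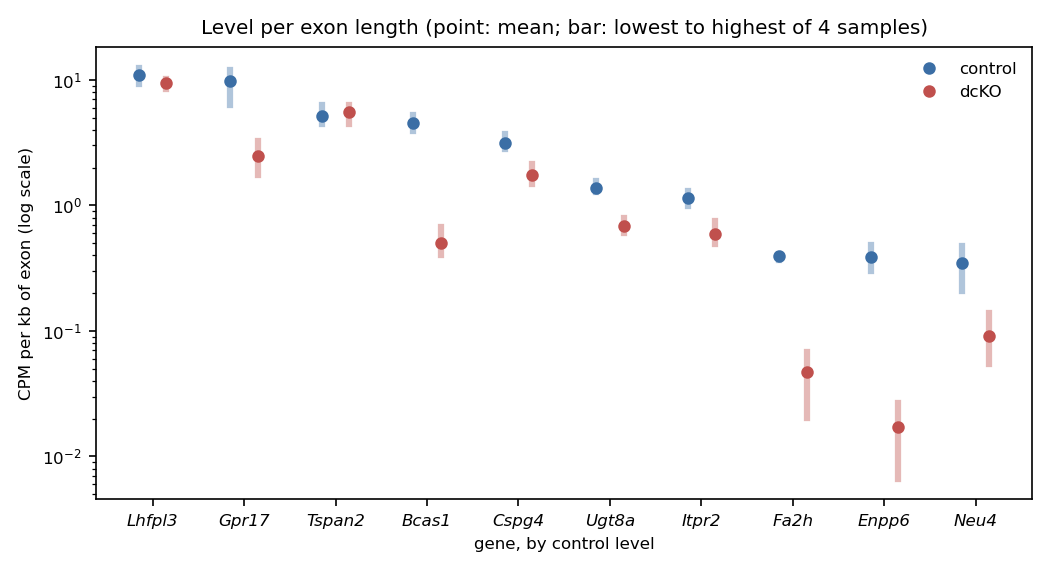
Level per kilobase of merged exon (CPM per kb, log scale) of the 10 genes, ordered by the control mean, in control (blue) and dcKO_hGFAP-Cre (red, dcKO) cortex, with points at the means and bars from the lowest to the highest of 4 samples. In control the means run from 11.0 CPM per kb in Lhfpl3 to 0.345 in Neu4, and the red points fall away from the blue ones most in Enpp6, Fa2h and Bcas1.

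Some members share exon sequence with other annotated genes, and the library kit does not mark strand. Gpr17 shares 188 bases, 3.62% of its merged exons, with Lims2 on the opposite strand, which encodes an adaptor protein of focal adhesions. Lims2 fell from 5.09 to 1.80 CPM (log2 fold change -1.504, SE 0.23, adjusted p = 0.000329 by edgeR's quasi-likelihood test), so reads in the shared bases cannot be assigned to either gene. Bcas1 shares 440 bases (11.7%) with Bcas1os1 and 34 bases with Bcas1os2, both of which were under 0.06 CPM on average in each group. Lhfpl3 shares 567 bases (17.6%) with A930003O13Rik, which averaged 1.09 CPM in controls and 1.37 CPM in mutants. Tspan2 shares 88 bases (1.85%) with Tspan2os, which rose from 0.479 to 0.883 CPM (adjusted p = 0.0304 by the same test). Enpp6 and Itpr2 overlap other annotated genes only outside merged exons, namely 4930579M01Rik and Gm45600 for Enpp6 and Gm15720, Gm44086 and Gm44087 for Itpr2. In the introns of Lhfpl3 lie 6030443J06Rik, Gm21846, Gm42948, Gm43169 and Gm6564, and Tspan2 overlaps Gm42681 and Tshb without shared exon bases.

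The stages before, beside and after the 10 genes were described from lists of other lineage genes, whose counts stand beside 18.9% lower and 18.6% higher over all genes tested. Of 15 precursor stage genes, 13 were lower and none was higher in mutant cortex at the same threshold, with a median log2 fold change of -0.93 (edgeR's quasi-likelihood test). Sox10, the lineage transcription factor, fell from 27.6 ± 1.61 to 9.73 ± 1.99 CPM (SD, n = 4 each; adjusted p = 9.76e-06 by that test), and Pdgfra, the receptor for the mitogen PDGF, fell from 135 ± 12.8 to 97.4 ± 6.01 CPM (adjusted p = 0.00109). Susd5 had the largest change of the list, with a log2 fold change of -2.72 (SE 0.28). Matn4 and Bcan, 2 matrix genes, had log2 fold changes of -1.36 and -1.16, Xylt1 fell from 95.3 to 33.6 CPM and C1ql1 from 6.76 to 3.38 CPM. Ptprz1 and Cacng4, the most abundant genes of the list, had log2 fold changes of -0.46 and -0.31. Pcdh15 and Megf11 did not pass the test. Whether the genes of this list are private to precursors was not tested. Bcan was 72.7, 86.9, 204 and 73.7 CPM in mutant replicates 1 to 4, highest in replicate 3 as were the summed astrocyte markers. Ptprz1 was instead highest in mutant replicate 4, at 693 CPM. Without the mutant replicates 1 and 2, which held choroid plexus transcripts and were the lane 5 mutants, 7 of the 15 were lower. Over all genes tested, 1500 of 16525 were lower in that fit, against 3128 with all samples. Of the 10 members, which were chosen on this contrast, 8 were among its lower calls.

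Of the 15 other committed stage genes that were measured, 5 were lower and 3 were higher in the mutant, beside 18.9% and 18.6% of all genes tested. The median log2 fold change was -0.05, near that of all genes. Tmem163, a zinc transporter, fell from 25.5 to 12.5 CPM (log2 fold change -1.03, SE 0.12, adjusted p = 5.43e-05 by edgeR's quasi-likelihood test). Prickle1, a planar polarity protein, fell by 0.91 and the kinase gene Fyn by 0.28 on the log2 scale, while the matrix proteoglycan gene Vcan was 211 ± 24.8 CPM in controls against 203 ± 24.6 CPM in mutants (SD, n = 4 each). Casr, the calcium-sensing receptor, rose from 0.475 to 1.98 CPM (log2 fold change 2.03, SE 0.34, adjusted p = 0.000726 by the same test). Tcf7l2 rose as well, with a log2 fold change of 0.60, and Nkx2-2 fell, with one of -0.97.

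Of the other genes of galactolipid and sphingolipid metabolism, 4 were lower and 6 were higher in the mutant among 22 tested, with a median log2 fold change of -0.07. These counts are near the shares over all genes, 18.9% lower and 18.6% higher, and are no result about the list. None of them changed as much as Fa2h or Ugt8a differed, since the list ran from -0.37 to 0.53. Galc, which breaks down galactosylceramide, rose from 26.8 to 38.7 CPM (adjusted p = 0.000641 by edgeR's quasi-likelihood test), and Asah1, an acid ceramidase, rose from 33.3 to 46.7 CPM (adjusted p = 0.00118). Ugcg, which makes glucosylceramide from the ceramide that Ugt8a also uses, fell from 118 to 90.8 CPM (adjusted p = 0.0026). Cers4, a ceramide synthase, was 97.7 ± 18.05 CPM in controls against 86.5 ± 14.6 CPM in mutants (SD, n = 4 each). Gal3st1, which sulphates the product of Ugt8a, was 5.06 ± 0.388 and 4.28 ± 0.638 CPM. The count of lower genes was 2 in place of 4 without control replicate 3, mutant replicate 1 or mutant replicate 2, and also with library totals.

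Genes of the myelin stage, which follows the committed and premyelinating stages, were listed as well. Of 14 tested, 4 were lower and none was higher in the mutant, with a median log2 fold change of -0.15, and Mobp and Opalin did not pass the filter. Myrf, the transcription factor of myelin genes, fell from 4.45 to 1.60 CPM (log2 fold change -1.47, SE 0.20, adjusted p = 0.000143 by edgeR's quasi-likelihood test). Mbp fell by 0.73 and Cnp by 0.60 on the log2 scale. The differences of Enpp6, Bcas1 and Fa2h were each more negative than that of every myelin stage gene tested. These 3 are the largest differences in a set of 10 chosen on this contrast, so nothing further is read from this.

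**Figure D4:**
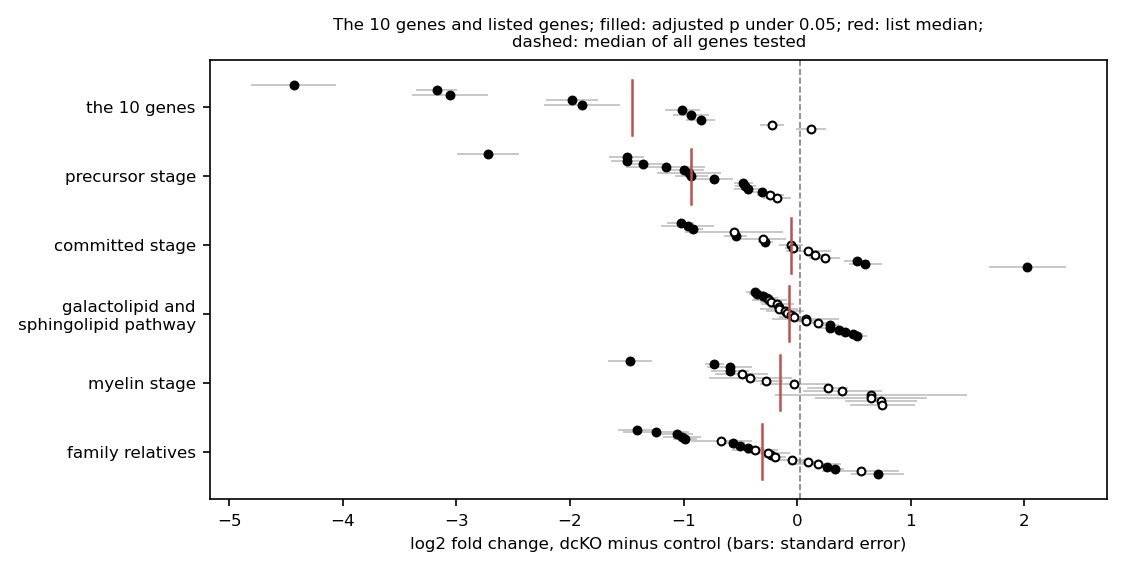
Log2 fold changes (dcKO_hGFAP-Cre minus control, horizontal axis, bars for the standard error) of the 10 genes and of the tested genes of 5 lists, filled where the adjusted p was under 0.05, with a red line at each median and a dashed line at the median of all genes tested, 0.02. The medians are -1.45 for the 10 genes, which were chosen on this contrast, -0.93 for precursor stage genes and between -0.31 and -0.05 for the other lists.

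The list of family relatives of the members gave 9 lower and 3 higher genes among 20 tested, with a median log2 fold change of -0.31. It also held Cspg5, Gpr37 and Gpr37l1, all among the lower calls. These share with Cspg4 or Gpr17 only the broad class of proteoglycan or G protein-coupled receptor. Over all genes tested the shares were 18.9% lower and 18.6% higher. Itpr1, the type 1 inositol trisphosphate receptor, fell from 128 ± 27.1 to 61.4 ± 6.72 CPM (SD, n = 4 each; log2 fold change -1.06, adjusted p = 0.00022 by edgeR's quasi-likelihood test). This is close in size to the value of Itpr2, -0.94, while Itpr3, at 5.95 ± 1.30 and 4.61 ± 1.02 CPM, did not pass the test. The sialidase relatives of Neu4 differed from it, with Neu1 higher at a log2 fold change of 0.33 (adjusted p = 0.00933) and Neu2 and Neu3 not called. Among phosphodiesterase relatives of Enpp6, Enpp1 and Enpp5 rose, with log2 fold changes of 0.71 and 0.26, and Enpp4 fell, with one of -0.44.

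Several listed genes of surface proteins were lower as well. Lhfp fell from 61.0 to 23.0 CPM (log2 fold change -1.41, SE 0.17, adjusted p = 9.6e-05 by edgeR's quasi-likelihood test), in contrast with the small difference of Lhfpl3. Tspan18 fell from 37.5 to 18.9 CPM (log2 fold change -0.99, adjusted p = 2.51e-05), where Tspan2 was 24.4 and 26.5 CPM on average and Tspan7 was 440 ± 10.3 and 383 ± 65.9 CPM (SD, n = 4 each). The proteoglycan gene Cspg5 fell from 510 to 345 CPM (adjusted p = 0.00115). Of receptors that like Gpr17 are coupled to G proteins and made by glia, Gpr37 fell from 16.3 to 8.06 CPM and Gpr37l1 from 20.8 to 8.73 CPM, with log2 fold changes of -1.01 and -1.24.

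The level of each member was also expressed as a share of the summed level of the 15 precursor stage genes in the same sample. That sum was between 1968 and 2277 CPM in controls and between 1265 and 1523 CPM in mutants. Ptprz1 was its largest part, at 879 CPM in controls and 640 CPM in mutants. Cacng4 was 284 and 229 CPM and Bcan 244 and 109 CPM, while Sox10 was 27.6 and 9.73 CPM. The sum therefore mostly follows a few abundant genes of the list, whose expression outside precursors was not tested. On this scale 6 members, Bcas1, Enpp6, Gpr17, Neu4, Fa2h and Ugt8a, had all 4 mutants below all 4 controls. The share over all genes tested was 2.17%. The set was chosen on the same contrast, so nothing further is read from this count. Bcas1 was 0.807 ± 0.0776% of the precursor sum in control and 0.135 ± 0.0292% in mutant cortex (SD, n = 4 each), 5.97 times lower. Enpp6 was 14.6 times, Fa2h 5.53 times, Gpr17 2.66 times and Neu4 2.58 times lower, and Ugt8a 1.33 times lower. Cspg4 and Itpr2 overlapped between the groups on this scale, at 1.78 ± 0.122% against 1.502 ± 0.205% and at 0.796 ± 0.0769% against 0.632 ± 0.0945%. Tspan2, 1.65 times higher, and Lhfpl3, 1.31 times higher, had all mutants above all controls, as did 62.5% of all genes tested.

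With a single precursor gene in place of the sum the picture depended on the gene. Relative to Pdgfra, Bcas1 was 6.52 times and Ugt8a 1.46 times lower in the mutant. Relative to Sox10, which had the more negative log2 fold change of the pair (-1.499 against -0.47), Bcas1 was 3.19 times lower but Ugt8a was 1.43 times and Cspg4 1.58 times higher. Neu4 overlapped between the groups relative to either gene, and Gpr17 did so relative to Sox10. Enpp6 and Fa2h were lower on either scale, by 15.9 and 6.11 times relative to Pdgfra and by 8.22 and 2.87 times relative to Sox10.

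**Figure D5:**
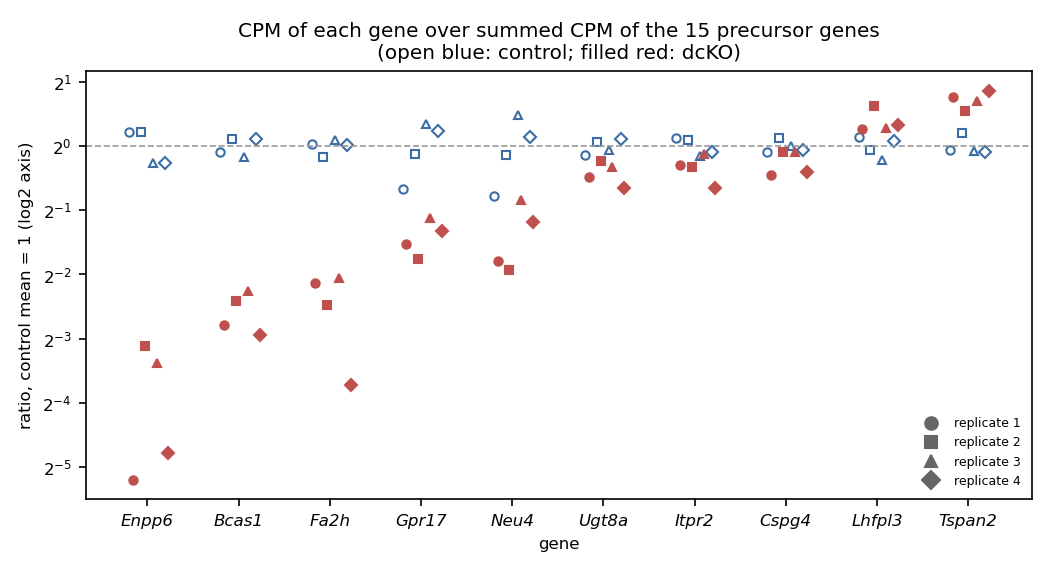
CPM of each gene divided by the summed CPM of the 15 precursor stage genes in the same sample, scaled so that the control mean is 1 (vertical log2 axis), for control (open blue) and dcKO_hGFAP-Cre (filled red) replicates 1 to 4. The mutants lie 14.6 times below the control mean on average in Enpp6, 5.97 times in Bcas1 and 1.33 times in Ugt8a, overlap the controls in Cspg4 and Itpr2, and lie above them in Lhfpl3 and Tspan2.

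Markers of other cells in the cortex were compared because some members are not private to the lineage. Their counts of calls stand beside 18.9% lower and 18.6% higher over all genes tested. The counts of 2 of 8 for pericyte and astrocyte markers are near the lower share and are no result about those lists. The 8 pericyte markers, relevant to Cspg4, summed to between 252 and 294 CPM in controls and between 219 and 313 CPM in mutants, and 2 of the 8, Abcc9 and Notch3, were lower. The 8 astrocyte markers, relevant to Itpr2, summed to 805, 725, 1714 and 693 CPM in mutant replicates 1 to 4 and to between 1242 and 1370 CPM in the controls, and 2 of the 8 were lower, Slc1a2 and S100b. Itpr2 was highest among the mutants in replicate 3, as was each of the 8 members among the lower calls. Endothelial markers were lower in 5 of 8, with sums of 274 to 333 CPM and 146 to 257 CPM, and neuron markers were lower in 6 of 8 and higher in 1. Microglia markers were higher in 6 of 8, with sums of 99.4 to 137 CPM in controls and 175 to 204 CPM in mutants. Choroid plexus markers summed to 616 and 1178 CPM in mutant replicates 1 and 2, to 21.0 and 4.59 CPM in mutant replicates 3 and 4 and to between 4.15 and 13.6 CPM in the controls, with 2 of 6 called higher. None of the 6 meninges markers was called, with sums between 14.97 and 161 CPM, and every marker of these lists was counted in all 8 samples. The part of the astrocytic, vascular, neuronal and microglial shifts in the levels of the 10 genes was not tested. Mutant replicates 1 and 2 had the most choroid plexus transcripts and were also the only mutants on lane 5. Choroid plexus content and lane therefore cannot be told apart in a fit without them. In that fit the log2 fold changes of Neu4 and Gpr17 moved most among the called members. They went from -1.89 to -1.49 and from -1.98 to -1.70. Those of Enpp6, Bcas1 and Fa2h were -4.38, -3.06 and -3.13.

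The genes with the most similar profiles over the 8 samples were found by the root mean square (RMS) difference of log2 CPM after each profile was centred on its mean, among 14639 genes with a mean of at least 1 CPM. Gpr17 and Neu4 were each other's nearest, with an RMS difference of 0.16 on the log2 scale, followed by Tshr for Gpr17 (0.18) and 9130017K11Rik for Neu4 (0.21). Bcas1 was nearest to Dsc3 (0.30) and Pou3f1 (0.37), and Enpp6 to Bcas1 (0.43) and Dsc3 (0.45). Fa2h was nearest to Gpc5 (0.28) and Pou3f1 (0.28). The members with smaller differences had closer neighbours, which were Ssx2ip (0.07) and Bhlhe40 (0.08) for Ugt8a, Ext1 (0.08) and Pter (0.08) for Cspg4, and Ednrb (0.09) and Arhgap31 (0.11) for Itpr2. Tspan2 was nearest to Lrp1b (0.06) and Stxbp4 (0.08), and Lhfpl3 to Fbxl17 (0.08) and Skida1 (0.09). These values describe likeness over 8 samples that share their libraries and the difference between the groups.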

How the data were processed

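RNA was isolated with TRIZOL and libraries were made with the TruSeq RNA v2 kit. Per the labels and the methods, the authors aligned reads to mm10 and deposited raw counts per gene from featureCounts, with no normalization. The aligner, annotation and strand setting are not given in the sources used here. Of 48709 identifiers, 48349 matched a symbol in GENCODE M21 (the same build), which also gave coordinates and exon lengths.

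Counts were tested with edgeR 4.0.16 (R 4.3.3): TMM scaling, the default filter (minimum count 10), robust quasi-likelihood F test, Benjamini-Hochberg adjustment over 16525 genes, threshold 0.05. The standard error of a log2 fold change is its size divided by the square root of F. Lane 5 held replicates 1 and 2 of both groups, lane 6 replicate 3 and lane 7 replicate 4. The members, lists and alternatives were chosen with earlier results of these data known. Named from each list of lineage, pathway and family genes were called genes that changed at least 1 log2 unit, the 2 with the smallest p and the 2 most abundant, with Pdgfra, Gal3st1, Tcf7l2, Nkx2-2, Pcdh15, Megf11 and other family genes added after their values were seen. Marker lists are given by sums and counts. Of the committed stage list, 1 gene had no matching symbol. For profiles, 2 was the prior count of the log2 CPM. The test was tried on simulated counts. DESeq2 1.42.0, other scalings, other filters, blocks and left-out replicates were alternatives. Replicate pairs differed beyond counting noise.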

Additional observations from a re-analysis of the deposited data

Results flagged for a closer look

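In 48 groups of 4 samples (the 10 genes, Smarcc1, Smarcc2 and the summed lists, by group), a single sample far from the other 3 was looked for with Dixon's criterion at the 95% level, which chance passes in about 1 of 20 groups. It was met in 2 groups, where 2.4 are given by chance, and in none of the 10 genes. The summed astrocyte markers were 1714 CPM in mutant replicate 3 and at most 805 CPM in the other mutants. The summed myelin stage genes were 156 CPM in control replicate 1 and between 172 and 173 CPM in the other controls.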

How the results depend on the processing

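The count of 8 members among the lower calls was kept with DESeq2, with DESeq2's size factors, with library totals, without a filter on low counts, with the lane as a block and with each replicate left out, for which it ranged from 8 to 8. It was 5 when at least 10 counts were required in every sample, since Enpp6, Neu4 and Fa2h were then not tested. No log2 fold change of a member changed sign, and each moved by less than the SD between replicates. Deviations of same-numbered samples from their group means had correlations between -0.07 and 0.21. With so few samples these cannot decide whether equal numbers were paired by litter. With the replicate number as a block, 8 members, 2982 genes in all and 13 precursor genes were lower and 2932 genes were higher. Leaving out 1 replicate gave 2 to 5 lower genes of the galactolipid and sphingolipid list (4 with all samples), and library totals gave 2. Leaving out mutant replicates 1 and 2 together, an alternative chosen after the data were seen, gave 1500 lower and 1471 higher genes, 7 lower precursor genes and 2 lower lipid genes, with 8 members among the lower calls. That fit has fewer samples and no mutant from lane 5. Low counts limit Enpp6, Fa2h and Neu4, whose mutants held between 1 and 19 counts.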
